A study of Mus musculus with 15 samples.

Results

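The Iroquois genes Irx1 to Irx6 were followed across neural progenitors in which a ventral transcription factor was switched on. They were taken by symbol from the count table, which listed all 6 among 23393 rows with a gene symbol. Progenitors were made from 129/Ola mouse embryonic stem cells by 2 days of suspension culture and then 500 nM all-trans retinoic acid, and every group, control included, received 1 ug/ml doxycycline for 12 hours. Doxycycline switches on a transgene behind a TRE promoter. The transgene was Olig2, Nkx2.2, Nkx6.1, Nkx6.1-P2A-Olig2 or Nkx6.1-P2A-Nkx2.2, where the P2A peptide lets 1 transcript give both proteins, and each of these 5 lines had 2 libraries. Values for several lines are given in that order unless the lines are named. The control was the mA2.lox.Cre line, whose TRE transgene is Cre, with 5 libraries. The stated aim was to find genes that the factors repress. The labels name 1 line per transgene and do not say whether libraries came from separate cultures, so p-values reflect only library-to-library spread, some of which may be technical.

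Iroquois genes encode homeodomain transcription factors of the TALE class and lie in a pair of clusters that arose by duplication of a single ancestral group. In the ventral neural tube Irx3 is known as a marker of progenitors dorsal to the motor neuron domain, and cross-repression between Irx3 and Olig2 is a textbook example of how a sharp progenitor border forms. Nkx2.2, Nkx6.1 and Olig2 are themselves known mainly as repressors that act in the most ventral interneuron progenitors, across the ventral progenitor domains and in motor neuron progenitors.

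In the GENCODE M21 annotation (mm10), Irx1 (13:71957921-71963723, minus strand), Irx2 (13:72628820-72634198, plus) and Irx4 (13:73260479-73269608, plus) form the chromosome 13 cluster, which spans 1312 kb. Irx3 (8:91798525-91802067, minus), Irx5 (8:92357625-92376286, plus) and Irx6 (8:92674288-92680956, plus) form the chromosome 8 cluster, which spans 882 kb. Irx3 and Irx6 each overlap an annotated antisense gene, Irx3os and Gm45505, which the count table does not list. Whether counting used strand is not given in the sources used here, and reads of each pair cannot be told apart.

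The RefSeq promoters (GRCm38.p6, 250 bases before to 50 bases after the start) of Irx3, the member called in all 5 lines, and of Irx2, the most abundant member of the other cluster, are shown to set both clusters side by side. Irx4 also had an entry, so 3 of the 6 members were matched. Capitals mark matches to AAGTG, the core bound by NK2-type homeodomains, to TAAT, a core shared by many homeodomains, or to CANNTG, the E-box bound by bHLH factors such as Olig2, each searched on both strands. No marked match overlapped another.
Irx3: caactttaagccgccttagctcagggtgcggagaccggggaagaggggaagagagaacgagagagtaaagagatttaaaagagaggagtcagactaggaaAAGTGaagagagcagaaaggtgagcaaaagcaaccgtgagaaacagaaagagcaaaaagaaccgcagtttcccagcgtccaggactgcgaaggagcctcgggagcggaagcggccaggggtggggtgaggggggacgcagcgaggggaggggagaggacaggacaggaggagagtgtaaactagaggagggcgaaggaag
Irx2: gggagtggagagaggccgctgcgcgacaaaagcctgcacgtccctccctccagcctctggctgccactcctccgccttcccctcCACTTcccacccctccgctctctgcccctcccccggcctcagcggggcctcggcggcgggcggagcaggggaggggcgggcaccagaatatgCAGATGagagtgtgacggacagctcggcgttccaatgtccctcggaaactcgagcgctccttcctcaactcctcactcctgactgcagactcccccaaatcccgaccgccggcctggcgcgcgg
The Irx3 window lies at chr8:91801605-91801904 on the minus strand, inside the GENCODE gene, and holds AAGTG 150 bases before the RefSeq start. The Irx2 window lies at chr13:72628570-72628869 on the plus strand and holds the reverse complement of AAGTG 166 bases and an E-box 74 bases before the start. The Irx4 window held TAAT 67 bases before its start and an E-box after it. Of all 32851 promoters in the table, 46.4% held AAGTG, 58.0% held TAAT and 72.3% held CANNTG, so each of these matches is common.

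In each library the transgene was seen at a high level. Nkx2-2 stood at 358 to 505 CPM (library-scaled read counts, by the TMM method) in the lines carrying it and at 0.261 to 1.39 in controls. Nkx6-1 stood at 616 to 681 CPM in the 3 Nkx6.1-bearing lines against 10.9 to 47.3 in controls, and Olig2 at 422 to 637 against 5.58 to 45.1. Counts do not separate transgene from endogenous transcripts. Totals ran from 12282038 to 19426544 counts, and every control total (at least 18015449) exceeded every line total (at most 17751854). Neural progenitor markers were abundant, with a summed level of 511 to 708 CPM in controls and 341 to 746 in lines. Both Nkx6.1 libraries (370 and 458 CPM) were below every control in this sum, and of these 6 markers Pax6 fell in all 5 lines and Sox2 in the Nkx6.1 line; their part in the Iroquois results was not tested. Of the markers of other cell types, edgeR's test found Hand2 lower in the Olig2, Nkx6.1 and Nkx6.1-P2A-Nkx2.2 lines, Meox1 in the Olig2 line, Sox17 in all 3 Nkx6.1-bearing lines, Tfap2b and Twist1 with Nkx6.1-P2A-Nkx2.2 and Tfap2a with Nkx6.1-P2A-Olig2. No marker was at 0 in every library. Endoderm markers were abundant too, with a summed level of 333 to 687 CPM in controls and 227 to 546 in lines. Markers of pluripotent cells summed to 131 to 250 CPM in controls and 82.3 to 232 in lines. Both 2-factor lines were below every control in this sum, at 82.3 to 129 CPM with Nkx6.1-P2A-Nkx2.2 and 88.4 to 94.5 with Nkx6.1-P2A-Olig2. What share of the cells these sums stand for was not tested. The 6 neural crest markers summed to 18.8 to 26.3 CPM in controls and 7.77 to 19.8 in lines. The 3 Nkx6.1-bearing lines were below every control in this sum. They stood at 14.2 to 14.9 CPM (Nkx6.1), 9.39 to 11.9 (Nkx6.1-P2A-Nkx2.2) and 7.77 to 13.3 (Nkx6.1-P2A-Olig2). The Nkx2.2 (11.7 to 19.8) and Olig2 lines (12.4 to 19.2) reached into the control range. The part of these markers in the Iroquois results was not tested. In bulk RNA, fewer cells of a type and less RNA per cell cannot be told apart.

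Without a ventral transgene the 6 genes were expressed at very different levels. Per kilobase of transcript, the control mean was 21.2 CPM per kb for Irx3 (SD 4.54, n = 5), 11.7 for Irx2 (SD 2.52), 5.40 for Irx5 (SD 1.32), 4.81 for Irx1 (SD 0.758), 0.575 for Irx4 (SD 0.252) and 0.0415 for Irx6 (SD 0.0216). Irx5 and Irx1 were the neighbours in this order that lay within their spread. Irx6 had 0 to 4 counts per library and failed the filter of 1 CPM in at least 2 libraries, so 5 of the 6 members were tested. Its control level was 0.140 ± 0.0729 CPM (SD, n = 5), the lines stood at 0 to 0.252 CPM, and a difference was not detectable at this depth. In the Nkx6.1-P2A-Olig2 line both libraries had 0 Irx6 counts.

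**Figure D1:**
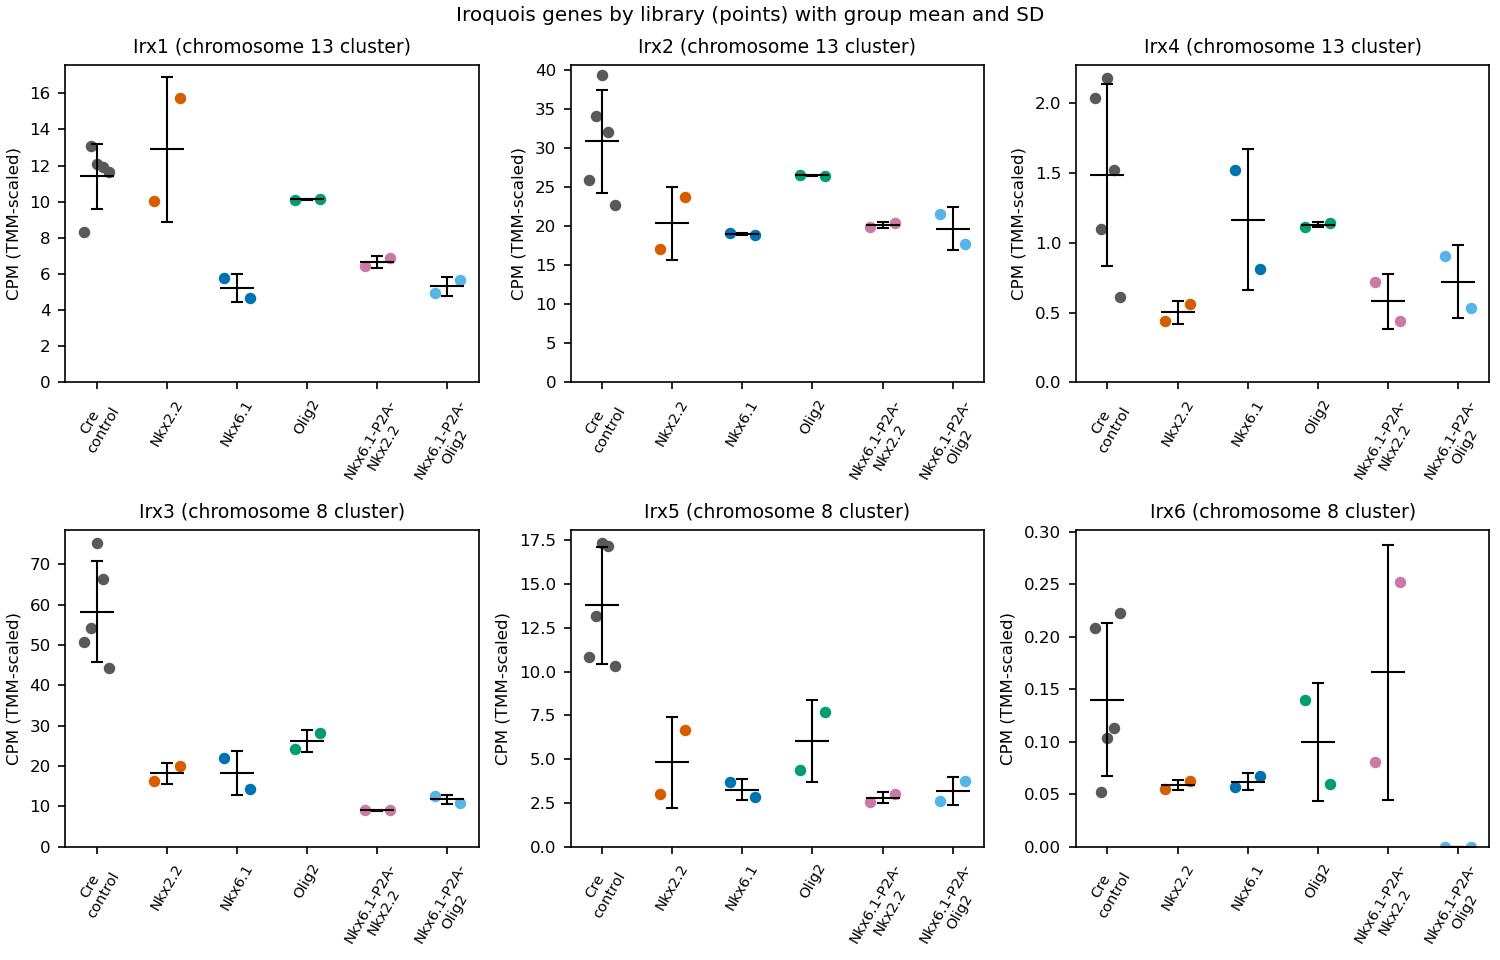
TMM-scaled CPM of each Iroquois gene in every library (points), with the group mean and SD (bars), on a linear axis from 0 that differs between genes. Both libraries of all 5 lines lie below all 5 controls for Irx3 and Irx5, whereas Irx1 in the Nkx2.2 and Olig2 lines lies among or above the controls.

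Irx3 fell in all 5 lines, by 2.22-fold in the Olig2 line to 6.44-fold with Nkx6.1-P2A-Nkx2.2. The controls stood at 50.8, 54.3, 75.3, 66.5 and 44.4 CPM in replicates 1 to 5. Olig2 libraries had 24.3 and 28.1 CPM, Nkx2.2 libraries 16.3 and 19.98, and Nkx6.1 libraries 22.0 and 14.3. Libraries with both factors were lower again, at 12.5 and 10.9 CPM with Nkx6.1-P2A-Olig2 and 9.14 and 8.95 with Nkx6.1-P2A-Nkx2.2. No line library overlapped the controls, the Nkx2.2 and Nkx6.1 libraries overlapped each other, and those of the Olig2 line and of both 2-factor lines did not overlap any other line.

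Against the control, the log2 fold change of Irx3 was −1.68 ± 0.22 (SE) in the Nkx2.2 line, with an adjusted p of 0.00285 from edgeR's quasi-likelihood test with Benjamini-Hochberg adjustment over all 13982 genes tested. In the same edgeR test it was −1.67 ± 0.22 in the Nkx6.1 line (adjusted p = 0.0045) and −1.15 ± 0.21 in the Olig2 line (adjusted p = 0.00894). The 2-factor lines gave −2.69 ± 0.24 with Nkx2.2 (adjusted p = 5.43e-05) and −2.32 ± 0.23 with Olig2 (adjusted p = 0.00026), again by edgeR. The mean level was thus 45.0%, 31.2%, 31.2%, 20.1% and 15.5% of the control mean in the Olig2, Nkx2.2, Nkx6.1, Nkx6.1-P2A-Olig2 and Nkx6.1-P2A-Nkx2.2 lines. The calls in the 2-factor lines stayed when any 1 of the 15 libraries was left out, whereas a single-factor line left with 1 library, assumed to vary like the other groups, lost its call in 4 of the cases. Those edgeR adjusted p were 0.0511 without Nkx2.2 replicate 1, 0.0706 without Nkx6.1 replicate 1, and 0.104 and 0.0961 without Olig2 replicate 1 and 2.

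Irx5, the neighbour of Irx3 and a gene with which it is often co-expressed, was lower in every line. Its control levels were 10.9, 13.2, 17.4, 17.2 and 10.3 CPM. The Nkx2.2 libraries had 2.98 and 6.66 CPM, those of Nkx6.1 3.66 and 2.84, and those of Olig2 4.39 and 7.69. With 2 factors it stood at 2.57 and 3.03 CPM (Nkx6.1-P2A-Nkx2.2) and at 2.60 and 3.75 (Nkx6.1-P2A-Olig2). All 10 line libraries were below all 5 controls, but the lines overlapped one another.

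Irx5 fell in the 3 Nkx6.1-bearing lines. The log2 fold change was −2.08 ± 0.36 (SE) in the Nkx6.1 line (edgeR adjusted p = 0.0182), −2.29 ± 0.37 with Nkx6.1-P2A-Nkx2.2 (edgeR adjusted p = 0.00374) and −2.12 ± 0.36 with Nkx6.1-P2A-Olig2 (edgeR adjusted p = 0.00696). In the Nkx2.2 line it was −1.52 ± 0.34 and in the Olig2 line −1.18 ± 0.33, which did not pass (edgeR adjusted p = 0.0639 and 0.111). DESeq2 called Irx5 in these lines too, with adjusted p of 0.00118 and 0.0179. Each edgeR call was lost when the line was left with 1 library, with adjusted p of 0.293 and 0.0876 in the Nkx6.1 line without replicate 1 or 2, of 0.0826 and 0.0748 with Nkx6.1-P2A-Nkx2.2, and of 0.0942 and 0.0605 with Nkx6.1-P2A-Olig2. The Nkx6.1 call also ended without control replicate 4 (edgeR adjusted p = 0.05001, just over the threshold), and Irx5 in the Nkx2.2 line passed without control replicate 5 (edgeR adjusted p = 0.0473).

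The authors' deposited table of 224 genes lists Irx3 and Irx5 but none of the other members. Its ratios, each a library's count divided by the mean control count, run from 0.105 to 0.498 over these genes in the authors' deposited table. They carry no correction for library totals, which were larger in the controls.

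Irx1, the chromosome 13 member known from kidney, lung and limb as well as neural tissue, split the lines. Controls had 8.35, 13.1, 12.1, 11.9 and 11.6 CPM. The Nkx6.1-bearing libraries were all below these, at 5.75 and 4.66 CPM with Nkx6.1 alone, 6.41 and 6.87 with Nkx6.1-P2A-Nkx2.2, and 4.96 and 5.69 with Nkx6.1-P2A-Olig2. Nkx2.2 libraries had 10.04 and 15.7 CPM and Olig2 libraries 10.1 and 10.2, which lay among or above the controls.

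In the test Irx1 fell in the Nkx6.1 line, with a log2 fold change of −1.13 ± 0.21 (SE, edgeR adjusted p = 0.0275), and in the Nkx6.1-P2A-Olig2 line (−1.10 ± 0.21, edgeR adjusted p = 0.0134). With Nkx6.1-P2A-Nkx2.2 it was −0.78 ± 0.21 and did not pass (edgeR adjusted p = 0.0678; DESeq2 adjusted p = 0.0196). The log2 fold change was 0.17 ± 0.19 in the Nkx2.2 line and −0.17 ± 0.20 in the Olig2 line (edgeR adjusted p = 0.895 and 0.772). The direct comparison of the Nkx2.2 with the Nkx6.1 line gave 1.30 ± 0.24 for Irx1 (edgeR adjusted p = 0.0299).

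These Irx1 calls rest on few libraries. The Nkx6.1 call ended without Nkx6.1 replicate 1 or 2 (edgeR adjusted p = 0.292 and 0.104) and without control replicate 2, 3 or 4 (0.0625, 0.0557 and 0.0746). The Nkx6.1-P2A-Olig2 call ended without either of its libraries (edgeR adjusted p = 0.133 and 0.123), and Irx1 with Nkx6.1-P2A-Nkx2.2 passed without Nkx2.2 replicate 1 or 2 or control replicate 1 (0.0402, 0.04003 and 0.0263). For the direct comparison, edgeR's adjusted p rose to 0.282 without Nkx2.2 replicate 2, to 0.235 and 0.124 without Nkx6.1 replicate 1 or 2, and to 0.0514 and 0.0565 without control replicate 2 or 4. Some libraries share the number in their label across groups. With that number as a replicate block, the direct difference was 0.40 (edgeR adjusted p = 0.587) and Irx1 in the Nkx6.1 line −0.54 (edgeR adjusted p = 0.326). In that fit the Nkx6.1 line rests on replicate 1, since replicate 2 has a label number of its own.

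Irx2, the neighbour of Irx1, stood lower in the Nkx6.1-bearing lines without passing the test. The controls stood at 25.9, 34.0, 39.4, 32.0 and 22.7 CPM. The Nkx6.1 libraries had 19.1 and 18.9, those of Nkx6.1-P2A-Nkx2.2 19.9 and 20.4, and those of Nkx6.1-P2A-Olig2 21.6 and 17.7. All 6 lay under the lowest control, while the Nkx2.2 libraries (17.1 and 23.7) and the Olig2 libraries (26.6 and 26.4) did not both do so. The log2 fold changes were −0.22, −0.60, −0.70, −0.65 and −0.61, each with an SE of 0.19, in the Olig2, Nkx2.2, Nkx6.1, Nkx6.1-P2A-Olig2 and Nkx6.1-P2A-Nkx2.2 lines, with edgeR adjusted p of 0.680, 0.258, 0.105, 0.0930 and 0.122. DESeq2 called Irx2 in the 3 Nkx6.1-bearing lines (adjusted p = 0.0195, 0.0257 and 0.0483). In edgeR these calls turned on control replicate 5, the control with the lowest Irx2, Irx3 and Irx5 and the highest Nkx6-1 and Olig2. Without it Irx2 passed in the same 3 lines, at −0.80, −0.75 and −0.70 (edgeR adjusted p = 0.0435, 0.0298 and 0.0406). Leaving out the lowest control enlarges a fall, and the cause of its low level was not tested.

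Irx4, best known from the ventricular heart muscle, was scarce. It stood at 0.611 to 2.18 CPM in controls, which is 11 to 42 counts, and at 0.441 to 1.52 CPM in the lines. Only in the Nkx2.2 line were both libraries (0.442 and 0.560 CPM) below all controls, and its log2 fold change there was −1.57 ± 0.51 (SE, edgeR adjusted p = 0.274). No line passed for Irx4, and the other log2 fold changes ran from −0.34 to −1.38 with SEs of 0.44 to 0.52.

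**Figure D2:**
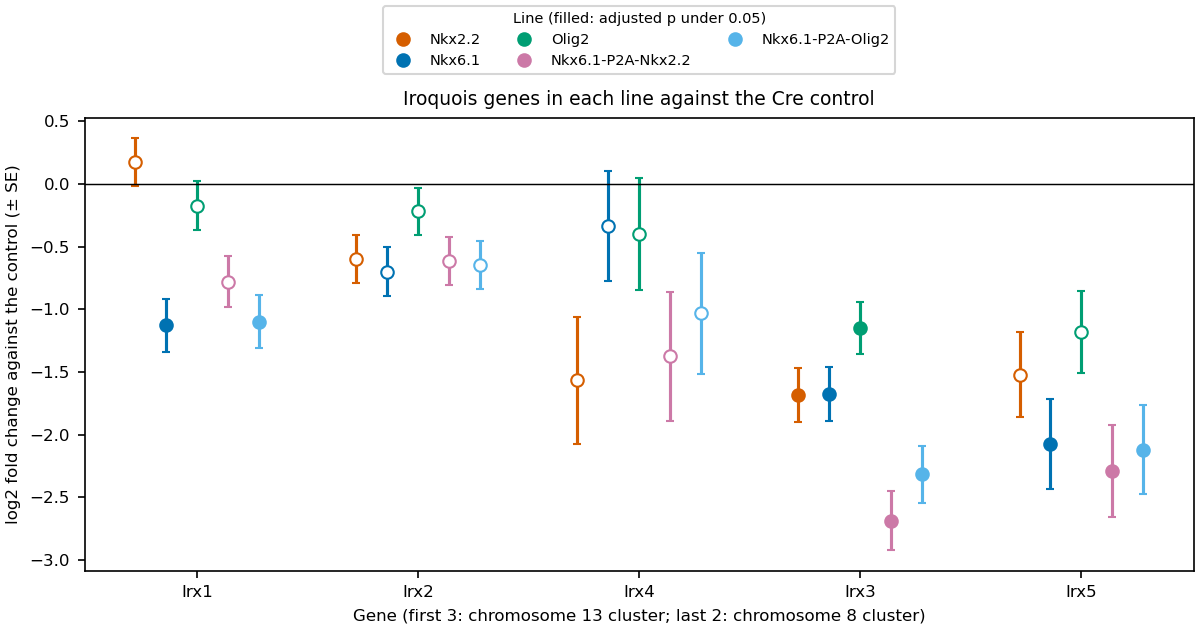
Log2 fold change against the Cre control (± SE from edgeR) of the 5 tested Iroquois genes in each line, filled where the adjusted p was under 0.05. Irx3 is filled in all 5 lines, Irx5 in the 3 Nkx6.1-bearing lines and Irx1 in 2 of these, and the values for Irx2 and Irx4 are open.

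The first 2 digits of the numbers in the labels are 21 for single-factor lines, 23 for 2-factor lines and both among controls; the labels do not say what they mean, and they may mark a batch. With a term for this series, which sets each line against controls of its own series, Irx3 stood at −1.20, −1.73, −1.72, −2.24 and −2.62 in the order Olig2, Nkx2.2, Nkx6.1, Nkx6.1-P2A-Olig2 and Nkx6.1-P2A-Nkx2.2 (edgeR adjusted p = 0.0174, 0.00768, 0.0127, 0.00152 and 0.00038). Irx5 stood at −2.08, −2.12 and −2.29 in the Nkx6.1-bearing lines (edgeR adjusted p = 0.0432, 0.0250 and 0.0174). Irx1 kept its call with Nkx6.1-P2A-Olig2 (−1.15, edgeR adjusted p = 0.0447) and lost it in the Nkx6.1 line (−1.10, edgeR adjusted p = 0.0697).

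Counted together, 1 of the 5 tested members fell in the Nkx2.2 line, where 0.451% of all genes tested were called lower, 3 in the Nkx6.1 line (0.565%) and 1 in the Olig2 line (0.443%). In the 2-factor lines 2 members fell with Nkx6.1-P2A-Nkx2.2 (1.76% of all genes) and 3 with Nkx6.1-P2A-Olig2 (1.82%). With 5 tested members, 1 call is already far above the share of all genes, so these counts are a description. Irx3 is in each of them, and is the only member in the Nkx2.2 and Olig2 lines. Every call against the control was a fall. At an unadjusted p under 0.05 edgeR gave 2, 4, 4, 4 and 5 members in the order Olig2, Nkx2.2, Nkx6.1, Nkx6.1-P2A-Olig2 and Nkx6.1-P2A-Nkx2.2, and DESeq2 called 2, 2, 4, 4 and 4. The share of all genes by either of these criteria is not given, here or below, so such counts have no reference beside them. The median log2 fold change of the 5 members was −0.40, −1.52, −1.13, −1.10 and −1.38 in that order, beside a median within 0.01 of 0 over all genes. Members with both line libraries below all 5 controls numbered 2, 3, 4, 4 and 4, where 7.84%, 6.69%, 9.70%, 10.4% and 9.99% of all genes did so.

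The clusters can be compared within each library, where scaling plays no part in a ratio. The chromosome 8 genes summed to 72.2 ± 15.7 CPM in controls (SD, n = 5), and this sum was 44.8%, 31.9%, 29.8%, 20.6% and 16.6% of that mean in the Olig2, Nkx2.2, Nkx6.1, Nkx6.1-P2A-Olig2 and Nkx6.1-P2A-Nkx2.2 lines. The chromosome 13 genes summed to 43.7 ± 7.97 CPM in controls and stood at 86.3%, 77.2%, 58.0%, 58.7% and 62.5% of it. The first sum rests mostly on Irx3 and the second on Irx2.

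The ratio of the chromosome 8 sum to the chromosome 13 sum was 1.65 ± 0.169 in controls (SD, n = 5; range 1.40 to 1.84). It was 0.703 and 0.668 in the Nkx2.2 libraries, 0.976 and 0.708 with Nkx6.1, and 0.764 and 0.951 with Olig2. The 2-factor libraries gave 0.436 and 0.442 with Nkx6.1-P2A-Nkx2.2 and 0.548 and 0.613 with Nkx6.1-P2A-Olig2. The chromosome 8 cluster was thus the larger sum in every control and the smaller in all 10 line libraries. Each 2-factor line lay below both of its single-factor lines, but these also differ in label series, and the ratios are not corrected for it. These ratios are a description, with no test, since the genes of a library are not replicates. Irx3 alone made up 50.2 ± 2.05% of the family's CPM in controls and 22.99 ± 0.793% with Nkx6.1-P2A-Nkx2.2 (SD, n = 2), while Irx2 went from 26.6 ± 1.80% to 51.1 ± 0.150%.

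**Figure D3:**
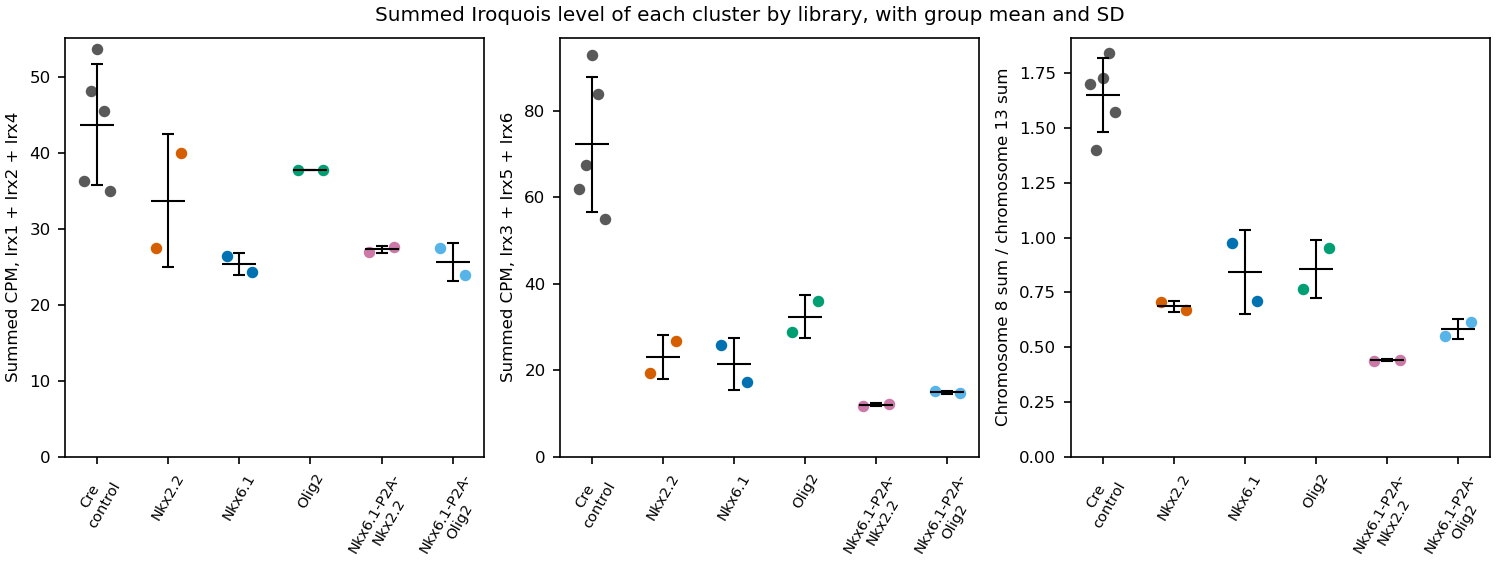
Summed CPM of the chromosome 13 genes (left), of the chromosome 8 genes (middle) and the ratio of chromosome 8 to chromosome 13 (right) in every library, with group mean and SD. The ratio lies between 1.40 and 1.84 in the controls and between 0.436 and 0.976 in the lines, with no overlap.

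Within each cluster the ratios of members are given as a description, with no test, and leave out the scarce Irx4 and Irx6. The ratio of Irx3 to Irx5 was 4.26 ± 0.297 in controls (SD, n = 5, range 3.87 to 4.68). The line libraries ran from 2.91 to 6.02, on both sides of the control range. Irx5 had 32 to 128 counts in line libraries and 186 to 334 in controls, so this ratio is coarser in the lines. The ratio of Irx2 to Irx1 was 2.72 ± 0.508 in controls (1.96 to 3.25), and in the Nkx2.2 libraries it was 1.70 and 1.50, below every other library. The remaining line libraries ran from 2.60 to 4.35. Over the 15 libraries, Pearson's r of log2(CPM + 1) was 0.950 for Irx3 with Irx5 and 0.652 for Irx1 with Irx2. For Irx4 it was 0.691 with Irx2 and 0.153 with Irx1. Across the clusters it was 0.869 and 0.839 for Irx2 with Irx5 and Irx3, and 0.733 and 0.668 for Irx1 with them. For Irx4 it was 0.620 with Irx5 and 0.727 with Irx3. Irx2 was thus closer to Irx3 and Irx5 than to Irx1, as a description over libraries that share groups.

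Whether a second factor lowered Irx3 further than the first was asked by comparing 2-factor with single-factor lines, with the same series term. No member passed in these 4 comparisons, in which 0.0286% (Nkx6.1-P2A-Nkx2.2 against Nkx6.1), 0.0930% (against Nkx2.2), 0.0787% (Nkx6.1-P2A-Olig2 against Nkx6.1) and 0.579% (against Olig2) of genes did. At an unadjusted p under 0.05 edgeR gave 1, 2, 0 and 2 members, and DESeq2 called none in any. The Irx3 differences were −0.90 ± 0.34 (SE), −0.89 ± 0.34, −0.52 ± 0.33 and −1.05 ± 0.33, with edgeR adjusted p of 0.580, 0.808, 0.582 and 0.186. All 4 were negative, and the last passed when the term was left out (−1.17, edgeR adjusted p = 0.0242). Irx1 with Nkx6.1-P2A-Nkx2.2 was −1.03 ± 0.33 against the Nkx2.2 line, and with Nkx6.1-P2A-Olig2 it was −1.004 ± 0.33 against the Olig2 line (edgeR adjusted p = 0.693 and 0.198).

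The departure of a 2-factor line from the sum of its single-factor log2 changes was also fitted. For Irx3 it was 0.83 ± 0.45 (SE) with Nkx6.1-P2A-Nkx2.2 and 0.67 ± 0.44 with Nkx6.1-P2A-Olig2, and for Irx5 1.31 ± 0.73 and 1.14 ± 0.72. A positive value means a smaller fall than the sum, and none passed (edgeR adjusted p = 0.873 for both genes in the first line, 0.548 and 0.527 in the second). Over all genes 0.00715% and 0.0215% passed, edgeR gave 1 and 0 members at an unadjusted p under 0.05 (Irx2 in the first line), and DESeq2 called none.

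Among the single-factor lines, the Irx1 difference between Nkx2.2 and Nkx6.1 given above was the 1 member call, where 0.579% of genes passed in either direction. In Nkx2.2 against Olig2 (1.84% of genes) and Nkx6.1 against Olig2 (1.88%) edgeR called no member. The unadjusted p was under 0.05 for 1 and 3 members, and DESeq2 called 0 and 1, the latter Irx1 at −0.96 ± 0.24 in edgeR's fit (edgeR adjusted p = 0.0692, DESeq2 adjusted p = 0.0181). For Irx3 the difference was −0.01 ± 0.24 between Nkx2.2 and Nkx6.1, −0.53 ± 0.24 between Nkx2.2 and Olig2, and −0.52 ± 0.24 between Nkx6.1 and Olig2 (edgeR adjusted p = 0.993, 0.492 and 0.315). EdgeR called no member between the 2-factor lines, where it called 0.157% of genes, with no member at an unadjusted p under 0.05 or by DESeq2. Irx3 was −0.37 ± 0.26 between them.

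The genes around each cluster were examined beside the members. Of all genes, 0.443% (Olig2 line) to 1.82% (Nkx6.1-P2A-Olig2 line) were called lower. Call counts in lists this short therefore cannot tell how far the changes extended. Of 18 genes whose start lies within 1 Mb of the chromosome 8 cluster, 9 were tested, and 1 fell, in both 2-factor lines. It was 4933436C20Rik, annotated as Crnde, a long non-coding RNA on the opposite strand whose start lies 1505 bases from that of Irx5. Its log2 fold change was −1.83 ± 0.45 (SE, edgeR adjusted p = 0.0487) with Nkx6.1-P2A-Nkx2.2 and −1.89 ± 0.45 (edgeR adjusted p = 0.0389) with Nkx6.1-P2A-Olig2. Its counts were 6 to 13 per library there and 21 to 68 in controls, so the estimate is coarse. In the other lines it was −0.71, −0.83 and −1.20 and did not pass, and the authors' deposited table lists it beside Irx3 and Irx5.

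Fto, whose introns are known to hold distal enhancers of Irx3, kept a log2 fold change between −0.12 and 0.01 over the 5 lines, and Rpgrip1l, beside it, between −0.14 and 0.14. Neither passed. In the single-factor lines edgeR called none of the 9 neighbours, with 0, 1 and 0 at an unadjusted p under 0.05 in the Nkx2.2, Nkx6.1 and Olig2 lines and none by DESeq2. DESeq2 called 2 and 1 in the 2-factor lines.

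Around the chromosome 13 cluster 14 of 21 neighbours were tested and edgeR called none in any line, with 1, 0, 1, 2 and 1 at an unadjusted p under 0.05 and none by DESeq2. With 0.443% to 1.82% of all genes called lower, a list of 14 with no call does not tell how far changes extended. Gm20554 starts 256 bases from Irx2 on the opposite strand, and their promoter windows share 245 bases. Its log2 fold change was 0.08, 0.04, −0.15, −0.81 and −0.29 in the Olig2, Nkx2.2, Nkx6.1, Nkx6.1-P2A-Olig2 and Nkx6.1-P2A-Nkx2.2 lines, where Irx2 had −0.22, −0.60, −0.70, −0.65 and −0.61. Over all tested genes of chromosome 8 the median log2 fold change was −0.04 to −0.01, and of chromosome 13 −0.07 to −0.01.

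**Figure D4:**
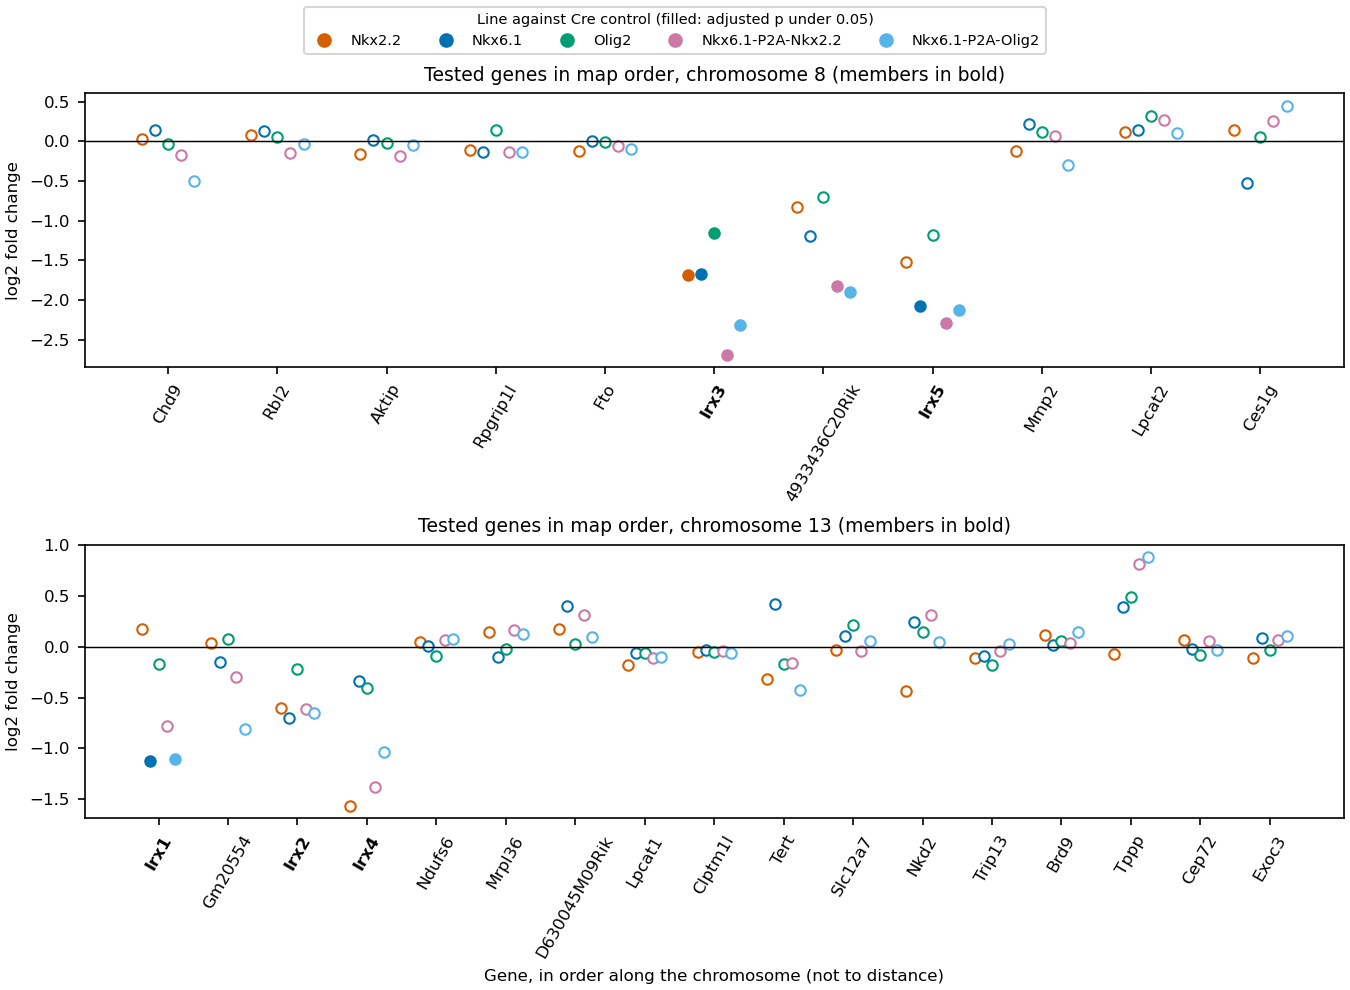
Log2 fold change against the Cre control of every tested gene in map order around the chromosome 8 cluster (top) and the chromosome 13 cluster (bottom), not to distance, filled where the edgeR adjusted p was under 0.05. On chromosome 8 the filled points belong to Irx3, Irx5 and 4933436C20Rik, and on chromosome 13 to Irx1.

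The 12 other genes of the TALE class, which include the Hox cofactors Meis and Pbx, were all tested. Of these, 0, 2, 1, 2 and 4 fell in the Olig2, Nkx2.2, Nkx6.1, Nkx6.1-P2A-Olig2 and Nkx6.1-P2A-Nkx2.2 lines. Of all genes, 0.443%, 0.451%, 0.565%, 1.82% and 1.76% were called lower in that order. The median log2 fold change of the 12 genes was −0.05, −0.07, −0.18, −0.17 and −0.05. Over all genes it ran from −0.00608 to 0.00364. Pbx3 fell in the Nkx2.2 line (−0.98) and in both 2-factor lines (−0.55 and −1.41), and Meis1 in the 3 Nkx6.1-bearing lines (−0.67, −0.53 and −0.54). Pbx2 rose by 0.30 on the log2 scale with Nkx6.1-P2A-Olig2. In the Olig2 line edgeR called none, with 4 at an unadjusted p under 0.05 and none by DESeq2.

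Among progenitor factors that share or border the Irx3 domain, Pax6 fell in all 5 lines and the others in some or none. Leaving out each line's own transgene, 1, 2 and 4 of 10 tested factors fell in the Olig2, Nkx2.2 and Nkx6.1 lines (0.443%, 0.451% and 0.565% of all genes). With Nkx6.1-P2A-Olig2 and with Nkx6.1-P2A-Nkx2.2, 4 and 6 of 9 factors fell (1.82% and 1.76% of all genes). Their median log2 fold change was −0.29, −0.88, −1.49, −1.43 and −1.82, beside a median within 0.01 of 0 for all genes. Pax6, a homeodomain factor of most of the ventricular zone, fell in all 5 lines, at −1.13, −2.99, −1.40, −1.43 and −3.44. Dbx2, of the intermediate neural tube, fell in 4 lines (−1.40, −2.24, −2.13 and −2.19) and stood at −0.93 in the Olig2 line, where it did not pass. Dbx1 fell in the 3 Nkx6.1-bearing lines (−4.60, −4.55 and −6.48). The dorsal factor Pax7 rose with Nkx6.1-P2A-Olig2, by 1.53 ± 0.30 on the log2 scale (SE, edgeR adjusted p = 0.0141).

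The genes outside the family whose level over the 15 libraries was most like that of each member were found by Pearson's r of log2(CPM + 1), as a description over libraries that share groups. For Irx3 they were Hhip (r = 0.964), Clstn2 (0.949), Nr2f2 (0.946), Dbx2 (0.944) and Tle1 (0.940). Hhip, which encodes a Hedgehog-binding membrane protein, was also among those of Irx5 (0.939), with Pdzrn3 (0.955), Vegfc (0.943), Fam181b (0.937) and Dbx2 (0.923). For Irx1 they were the forkhead gene Foxd1 (0.928), Dach1 (0.920) and Rmst (0.917). Foxd1 rose in the Nkx2.2 line (0.82), fell in the Nkx6.1, Nkx6.1-P2A-Olig2 and Nkx6.1-P2A-Nkx2.2 lines (−1.48, −1.18 and −0.80), and stood at 0.03 in the Olig2 line, and it was chosen for its likeness to Irx1 over these libraries. Irx2 was most like Acvr2a (0.921), Plcb1 (0.895) and Mllt3 (0.891), and Irx4 most like Aff3 (0.911), Gli3 (0.910) and Btbd11 (0.891).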

How the data were processed

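RNA of 15 libraries was analysed. Column-purified RNA was made into libraries with a TruSeq kit, per the labels' protocols. Per the submitters' processing notes, STAR, DESeq2 and mm10 were used; versions, roles, the annotation, the counter and its strand setting are not given in the sources used here. The deposited values are counts, although their sheet is named for RPKM: 0 cells were not whole and library totals differed. A spreadsheet had turned 27 symbols into dates; these rows held 0.228% to 0.253% of counts, stayed in the totals and were not tested. The second table's deposited ratio equalled count over mean control count within 1e-08 in all 2240 cells.

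Counts were scaled by TMM and tested with edgeR 4.0.16 (R 4.3.3), quasi-likelihood, for genes of at least 1 CPM in at least 2 libraries (13982), in 1 model of all 15 libraries and 6 groups, which share 1 estimate of the spread. A term for the label series (21 or 23) was added where 2-factor and single-factor lines were compared and for departures from sums. P-values were adjusted by Benjamini-Hochberg over all genes tested (threshold 0.05), and "rose" and "fell" mean past it. The script was tested on simulated data. Alternatives were DESeq2 1.42.0, limma 3.58.1 on log2(CPM + 1) or log2(CPM + 0.1), median-of-ratios scaling, no filter or 5 CPM, the series term added or left out, a block for the replicate number, a fit of the compared groups alone, and each library left out. Positions came from GENCODE M21. Members' transcripts shared at most 77 of 2762 or 3368 stretches of 30 bases (Irx3 with Irx6), and how shared reads were counted is not given in the sources used here.

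The members, gene lists and tests were chosen with earlier results of these data known. Named beside the members were, by rule, other TALE genes, progenitor factors, neighbours within 1 Mb and the 3 or, for Irx3 and Irx5, 5 genes most correlated with a member; of each list up to 4 genes past the threshold were named, and genes named beyond this were chosen after their values were seen.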

Additional observations from a re-analysis of the deposited data

Results flagged for a closer look

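Irx1 differed between a pair of lines under the same control contrast. Its level was 1.30 higher on the log2 scale in the Nkx2.2 line than in the Nkx6.1 line (SE 0.24, edgeR adjusted p = 0.0299), with 10.04 and 15.7 CPM against 5.75 and 4.66 CPM, so both Nkx2.2 libraries were above both Nkx6.1 libraries. With the label number as a replicate block the difference was 0.40 (edgeR adjusted p = 0.587). The cause was not tested.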

How the results depend on the processing

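Over 10 settings other than leaving out a library, 25 results against the control were recomputed for the 5 tested members, and Irx3 kept its direction and its call in all 5 lines. Calls that changed, beside the DESeq2 calls of Irx2 and of Irx1 between Nkx6.1 and Olig2 given with those genes, are given as log2 fold change with adjusted p, and the cause was not tested. Irx5 in the Nkx2.2 line passed with DESeq2 (−1.51, 0.00118), limma at a pseudocount of 1 (−1.39, 0.0350) or 0.1 (−1.57, 0.0420) and no filter (−1.53, 0.0393). Irx5 in the Olig2 line (−1.19, 0.0179) and Irx1 with Nkx6.1-P2A-Nkx2.2 (−0.78, 0.0196) passed with DESeq2. Irx1 in the Nkx6.1 line did not pass with the series term (−1.10, 0.0697) or with only the compared groups (−1.13, 0.0526).

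Of 30 pairs of libraries with the same title number, 17 had a correlation of deviations over 0.1 (−0.358 to 0.727). Of 10 pairs with the same label number, 6 did (−0.521 to 0.727). Libraries with different numbers were not compared in this way, so these values cannot tell whether the numbers pair the libraries. With the title number as a replicate block, Irx1 did not pass in the Nkx6.1 line (−1.002, 0.154) or with Nkx6.1-P2A-Olig2 (−0.99, 0.0586). With that block Irx3 passed between Nkx6.1-P2A-Olig2 and Olig2 (−1.17, 0.00957). The title-number block takes the place of the series term there, without which Irx3 also passed with no block (−1.17, 0.0242). No label number occurs in both series, so a block by label number also accounts for the series. With the label number as the block, Irx5 passed in the Nkx2.2 (−2.16, 0.00528) and Olig2 lines (−1.97, 0.00290) and not in the Nkx6.1 line (−1.56, 0.0861), Irx1 passed with Nkx6.1-P2A-Nkx2.2 (−0.83, 0.0204) and not in the Nkx6.1 line (−0.54, 0.326), and the Irx1 difference between the Nkx2.2 and Nkx6.1 lines was 0.40 (0.587). Irx2 passed with Nkx6.1-P2A-Olig2 (−0.47, 0.0479) and in the Olig2 (−0.65, 0.0161) and Nkx2.2 lines (−0.91, 0.0131), and Irx3 between Nkx6.1-P2A-Olig2 and Olig2 (−0.72, 0.0366). In this fit replicate 2 of the Nkx2.2 and of the Olig2 line share label number 215, which no control has. Replicate 2 of each line therefore meets the control only through the other line, whose replicate 1 shares a label number with a control.

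Signs changed only where the main value had not passed. Under the label-number block, Irx1 in the Nkx2.2 line was −0.13, Irx5 between Nkx2.2 and Nkx6.1 −0.59, Irx3 and Irx5 between Nkx6.1 and Olig2 0.30 and 0.40, Irx1 with Nkx6.1-P2A-Nkx2.2 against Nkx6.1 −0.29, and its departures from the sums −0.16 and −0.0920. Irx3 between Nkx2.2 and Nkx6.1 was 0.00805 with DESeq2, 0.0210 and 0.0233 with limma at a pseudocount of 1 and 0.1, and 0.00566 with median-of-ratios scaling. Irx1 between Nkx6.1-P2A-Olig2 and Nkx6.1 was 0.0273 without the series term and 0.0102 under the title-number block.

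Leaving out each library in turn gave these ranges. Irx3 ran from −1.83 to −1.52 in the Nkx2.2 line, −2.02 to −1.40 in the Nkx6.1 line and −1.26 to −1.04 in the Olig2 line. Irx5 ran from −2.21 to −1.03 (Nkx2.2), −2.27 to −1.91 (Nkx6.1), −2.42 to −2.18 (Nkx6.1-P2A-Nkx2.2) and −2.40 to −1.88 (Nkx6.1-P2A-Olig2). Irx1 ran from −0.18 to 0.48 (Nkx2.2), −1.29 to −0.98 (Nkx6.1), −0.87 to −0.73 (Nkx6.1-P2A-Nkx2.2) and −1.20 to −1.01 (Nkx6.1-P2A-Olig2), and Irx4 in the Nkx6.1 line from −0.87 to 0.0300. Between lines, Irx1 ran from −0.0123 to 0.66 (Nkx2.2 and Olig2) and −0.20 to 0.12 (Nkx6.1-P2A-Olig2 and Nkx6.1), with departures from −0.23 to 0.43 and −0.16 to 0.44. Irx3 ran from −0.28 to 0.34 (Nkx2.2 and Nkx6.1). Irx5 ran from −0.13 to 1.06 (Nkx2.2 and Nkx6.1), −1.02 to 0.16 (Nkx2.2 and Olig2), −0.52 to 0.18 (Nkx6.1-P2A-Nkx2.2 against Nkx6.1), −0.41 to 0.11 (both 2-factor lines) and −0.36 to 0.36 (Nkx6.1-P2A-Olig2 and Nkx6.1). Depth limits Irx4 and Irx6, and the filter at 5 CPM gave no value for Irx4.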
